A study of Mus musculus with 65 samples.

Results

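The thymus of 18-month-old mice was compared with that of 4-month-old mice in the arrays whose titles name this tissue and one of these ages: 10 arrays of the 65 in the series, 5 at 18 months and 5 at 4 months. All mice were male, wild type and C57BL/6J, and untreated. Each array held the RNA of 1 mouse, homogenized from the whole dissected organ, so cells of the thymus were not separated from fat, vessels or lymph node tissue attached to it. No mouse gave both ages, and each of the 10 mice also gave at least 1 of the other tissues of the series, which were skin, skeletal muscle, bone and white adipose tissue. The series also holds skin, muscle and bone of mice aged 28 months, whose arrays enter the spread of the test with all arrays. Exon-level signal was measured, and a gene value is the mean log2 signal over all probe sets (groups of probes that mostly lie within 1 exon) paired with 1 gene symbol, for 15830 genes with a median of 9 probe sets. A change is the 18-month mean minus the 4-month mean on the log2 scale, given ± its standard error (SE), and array values are listed in the order of replicates 1 to 5.

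The thymus makes T cells. Progenitors from the marrow enter it as double negative thymocytes, which carry neither CD4 nor CD8, divide under signals from Notch receptors and interleukin 7, rearrange their receptor genes with the RAG recombinase, and pass through a CD4 and CD8 double positive stage in the cortex before selection to single positive cells in the medulla. Cortical and medullary epithelial cells, which depend on the transcription factor Foxn1, supply the ligands for these steps. The organ shrinks with age, a process called involution, in which epithelial space and thymocyte number fall and fat, B cells and plasma cells become more frequent. In bulk RNA from a whole organ, fewer cells of a type and less RNA per cell cannot be told apart.

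The arrays carried the markers of thymus at both ages. The recombinase gene Rag1 lay at 12.51 to 13.06 at 18 months and 12.97 to 13.08 at 4 months, the coreceptor gene Cd8a at 12.64 to 12.92 and 12.74 to 12.81, and the epithelial protease gene Prss16 at 11.47 to 12.01 and 11.60 to 12.08. The lower quartile of probe set values was 3.22 to 3.31 in these arrays, and Aire (3.86 to 4.2 at 18 months, 4.11 to 4.39 at 4 months) and Foxp3 (3.66 to 3.95 and 3.70 to 3.80), genes of rare cells, lay not far above it. The 18-month arrays were more unlike each other than the 4-month arrays: their mean correlation with the arrays of their own age was 0.979 to 0.989, against 0.994 to 0.995 at 4 months, and 74.3% of genes had a larger standard deviation (SD) at 18 months (median 0.173, against 0.114). Each 18-month array correlated at least as well with the 4-month arrays (mean 0.981 to 0.990) as with those of its own age. Replicates 1 and 5 of the 18-month group were the least alike pair (0.969), and results were also computed without both of them.

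Of the 15830 genes, 30 were differentially expressed (DE: a limma adjusted p under 0.05 together with a change of 2-fold or more), which is 0.190% of the genes tested: 29 were higher in the 18-month thymus and 1, Tbrg3, was lower. With no fold threshold 64 genes rose (0.404%) and 42 fell (0.265%). This split depended on the scaling: with each array centred on its median gene value, 41 rose and 72 fell. The median change over all genes was 0.02 (-0.05 with arrays centred), and without centring 57.3% of the changes were positive. An unadjusted p below 0.05 was reached by 1208 of the 15830 genes. The sign counts and unadjusted counts of the lists below are to be read against these backgrounds. The limma test with all arrays takes its spread from all 65 arrays, among them those of skin, muscle and bone at 28 months. Its p-values measure the spread between mice within the 13 groups of all tissues, not between the thymus mice alone. For a gene that varies in other tissues its SE is larger than that of the thymus arrays alone, and for a gene that is low and even in them it is smaller. Fitted on the 10 thymus arrays alone, where the spread was smaller (median SE 0.0969, against 0.162), limma placed 329 genes higher (2.08%) and 114 lower (0.720%) at an adjusted p below 0.05. A count that needs no model is that of genes whose 5 arrays of one age all lay on one side of the 5 of the other, here called separated genes: 555 (3.51%) were separated upward and 312 (1.97%) downward. The words rose and fell are used below for the test with all arrays. The gene lists below were chosen with earlier results of these data known. Their counts and means therefore describe these arrays and are no independent test.

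For 26 of the 30 DE genes the 18-month arrays all lay above the 4-month arrays, 25 passed with the thymus arrays alone (all but Il23r, Ghr, Aldh1a1, Tbrg3 and Gabra3), and 15 passed in each of the 10 fits that left out 1 thymus array. Their highest array was replicate 1 of the 18-month group for 14 genes and replicate 5 for 8. Without these 2 arrays 19 genes were DE. Of the 30, 14 then still passed the adjusted p (1110017I16Rik, 2010001M09Rik, Ighg1, Il23r, Atp6v0d2, S100a6, Fcna, Blk, Gpnmb, Rarres2, Mgl2, Ghr, C3ar1 and Hp) and the others did not. The change that divided DE genes from other genes past the adjusted p lay between 1.01 (Il1r1) and 0.991.

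**Figure D1:**
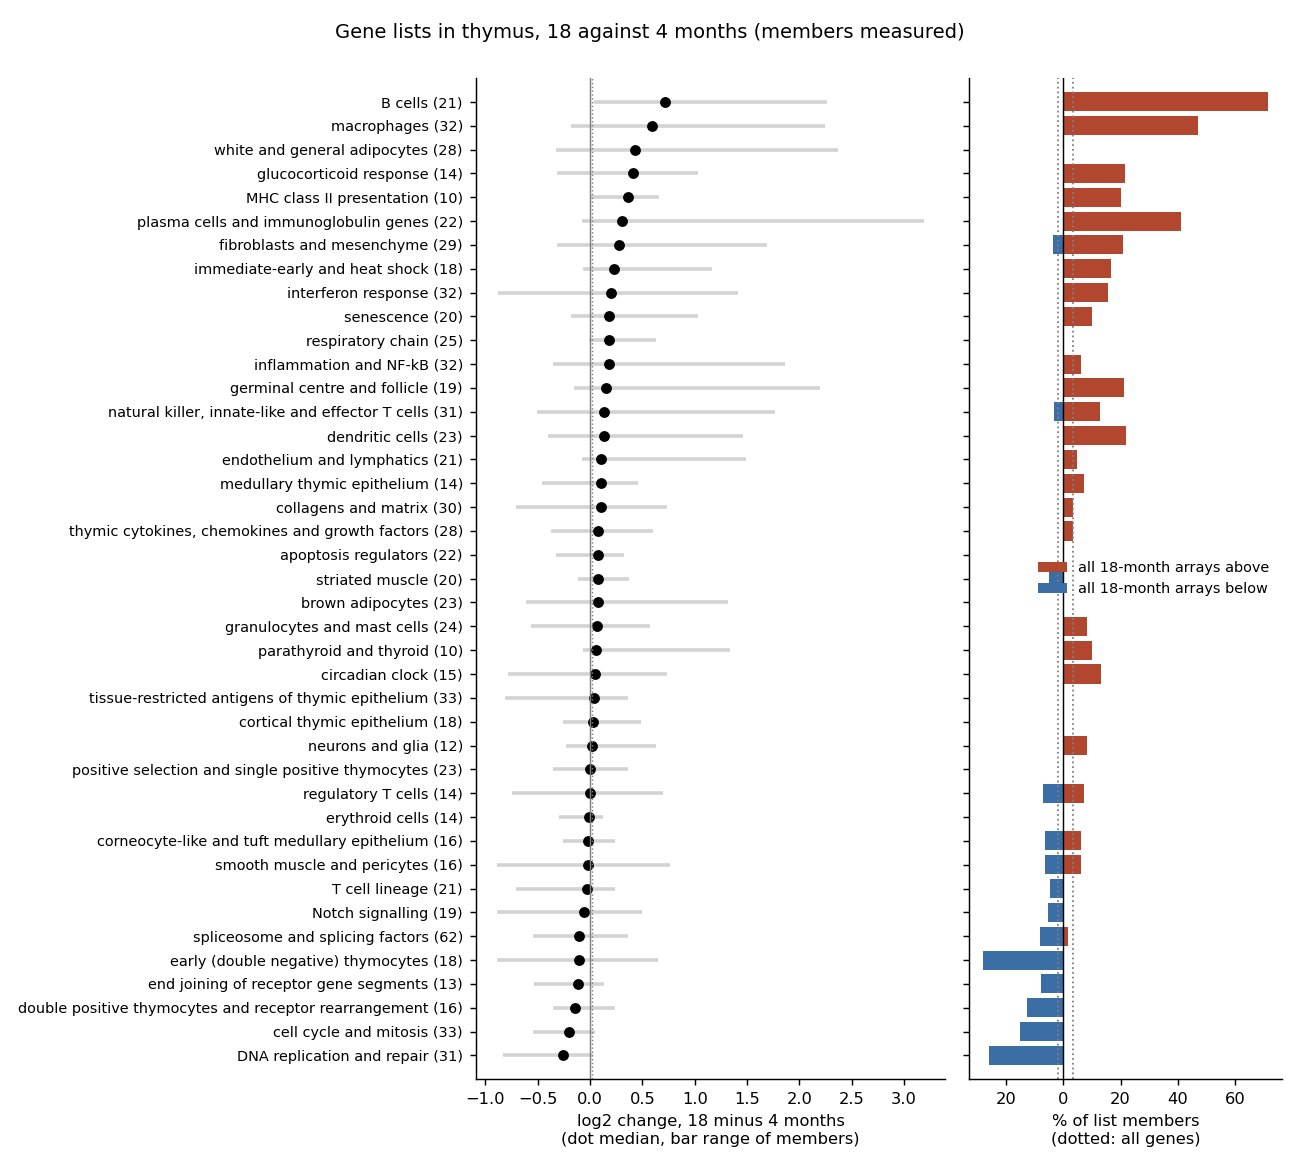
Change of 41 gene lists in thymus, 18 minus 4 months: left, each list's median log2 change (dot) and the range of its members (bar), with the median of all genes dotted; right, the percentage of members whose 18-month arrays all lay above (red) or below (blue) the 4-month arrays, with the percentages of all genes (3.51% and 1.97%) dotted. B cells had the highest median (0.72) and DNA replication and repair the lowest (-0.26).

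Immunoglobulin and B cell genes led the rise. Ighg1, the constant region of IgG1 heavy chains, had the largest change. Its log2 values were 9.08, 7.91, 8.72, 6.89 and 10.21 in the 18-month arrays, against 4.86, 5.19, 5.40, 5.30 and 6.09 in the 4-month arrays. The groups did not overlap, and the mean was 9.16-fold higher at 18 months (change 3.19 ± 0.52, adjusted p = 0.000164), although the 18-month mice spread over more than 3 log2 units. Mzb1, listed in the files as 2010001M09Rik, encodes a chaperone of the endoplasmic reticulum that B and plasma cells use to assemble antibody. It had 5.42, 6.15, 6.68, 5.94 and 7.02 at 18 months, against 4.06, 3.90, 4.2, 3.84 and 4.23 at 4 months (2.19 ± 0.36, adjusted p = 0.000164). The entry named Igh, another immunoglobulin heavy chain record, had 9.18, 8.02, 8.90, 8.41 and 8.89, against 6.55, 6.84, 6.72, 6.34 and 6.47 (2.10 ± 0.44, adjusted p = 0.00619, and 0.134 with a change of 1.86 without 18-month replicates 1 and 5). Because immunoglobulin segments form a large family of similar sequences, which member such an entry measured is uncertain. Ell2, an elongation factor that favours secreted over membrane antibody in plasma cells, rose by 1.05 ± 0.23 (adjusted p = 0.00876, and 0.08 with a change of 0.91 without 4-month replicate 1).

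Of 22 genes of plasma cells and immunoglobulins, 3 rose and 0 fell with all arrays, 9 were higher and 0 lower with the thymus arrays alone, and 9 were separated upward, with a median change of 0.30. The 9 include Igh-6, the IgM heavy chain, at 11.48, 11.86, 11.72, 11.60 and 11.73, against 10.69, 10.89, 10.91, 10.70 and 10.80, a change of 0.88 ± 0.31 with an adjusted p of 0.256 in the limma fit of all arrays and 0.000813 with the thymus arrays alone. The kappa light chain entry Igk-C, read by 1 probe set, lay at 13.84 to 13.95, against 12.94 to 13.26 (0.79 ± 0.64, adjusted p = 0.998 and 0.000813). Both were high at 4 months already. The plasma cell surface gene Sdc1 (0.31 ± 0.29) and the plasma cell factor Prdm1 (0.27 ± 0.23) passed neither test and overlapped between ages.

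The B cell list was higher in every 18-month array. All 21 measured members (of 26 listed) had a positive change, with a median of 0.72 (0.78 without 18-month replicates 1 and 5, and 0.65 with arrays centred on their medians). The mean of the list was 5.66 to 6.25 in the 18-month arrays and 5.00 to 5.23 in the 4-month arrays. Of the members 2 rose and 0 fell with all arrays, 14 were higher with the thymus arrays alone (7 to 14 when 1 array was left out), and 15 were separated upward. Blk, a Src-family kinase of B cells that innate-like T cells also carry, had 6.97, 5.80, 5.23, 5.77 and 5.31, against 3.95, 4.14, 4.11, 3.90 and 4.13 (1.77 ± 0.34, adjusted p = 0.00206). Its highest value was that of replicate 1, without which the change was 1.48 (adjusted p = 0.0247), and with probe sets of mean log2 of at least 5 it did not pass (2.03, 0.0744). Cxcr5, the receptor that guides B cells and helper T cells to follicles, had 4.46, 5.01, 3.95, 4.02 and 4.55, against 2.89, 2.92, 3.26, 2.96 and 3.16 (1.36 ± 0.33, adjusted p = 0.0269). It did not pass in 6 of the 10 fits that left out 1 array, where the change was 1.21 to 1.47 over all 10 and the adjusted p reached 0.113. The antigen receptor subunit gene Cd79a, named after its values were seen, had 7.28, 8.09, 7.68, 6.87 and 7.47, against 5.27, 5.53, 5.47, 4.75 and 5.07. Its change of 2.26 ± 0.66 was larger than that of Blk but did not pass with all arrays (adjusted p = 0.109), and passed with the thymus arrays alone (0.000889). The SE of such genes in the fit of all arrays includes their spread in the other tissues. The same held for Ms4a1, which encodes CD20 (1.65 ± 0.62, adjusted p = 0.338, and 0.0178 alone). Tlr9, Cd37 and Ly6d, also in the list, changed by 0.04 to 0.09.

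Among 19 genes of germinal centres and follicles, 1 rose (Cxcr5) and 4 were higher with the thymus arrays alone, with a median change of 0.15. Cxcl13, the chemokine that Cxcr5 binds, was one of the 4. It had 8.46, 9.02, 7.21, 7.40 and 7.28, against 4.58, 6.17, 5.66, 5.58 and 6.39, a change of 2.20 ± 0.78 with an adjusted p of 0.278 in the limma fit of all arrays and 0.0224 alone. The germinal centre factor Bcl6 changed by -0.15. In the other tissues the median change of the B cell list between the same ages was 0.33 in bone, 0.18 in muscle, 0.02 in skin and -0.20 in adipose tissue, and Ighg1 (2.56) and Mzb1 (2.32) rose in bone too. Igh rose in bone (3.11) and muscle (1.81). The plasma cell and immunoglobulin list had a median change of 0.72 in bone, 0.27 in muscle, 0.16 in adipose tissue and 0.12 in skin. In bone 6 of its members rose. The difference between the thymus change and the mean of the 4 other tissues passed for Blk (1.68, adjusted p = 0.0293) and did not for Ighg1 (2.34, 0.0741), 2010001M09Rik (1.45, 0.133), Igh (0.61, 0.923) or Cxcr5 (1.33, 0.138). Over all genes 27 passed this test of the difference (0.171%), 13 of them with a larger change in thymus and 14 with a smaller one.

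**Figure D2:**
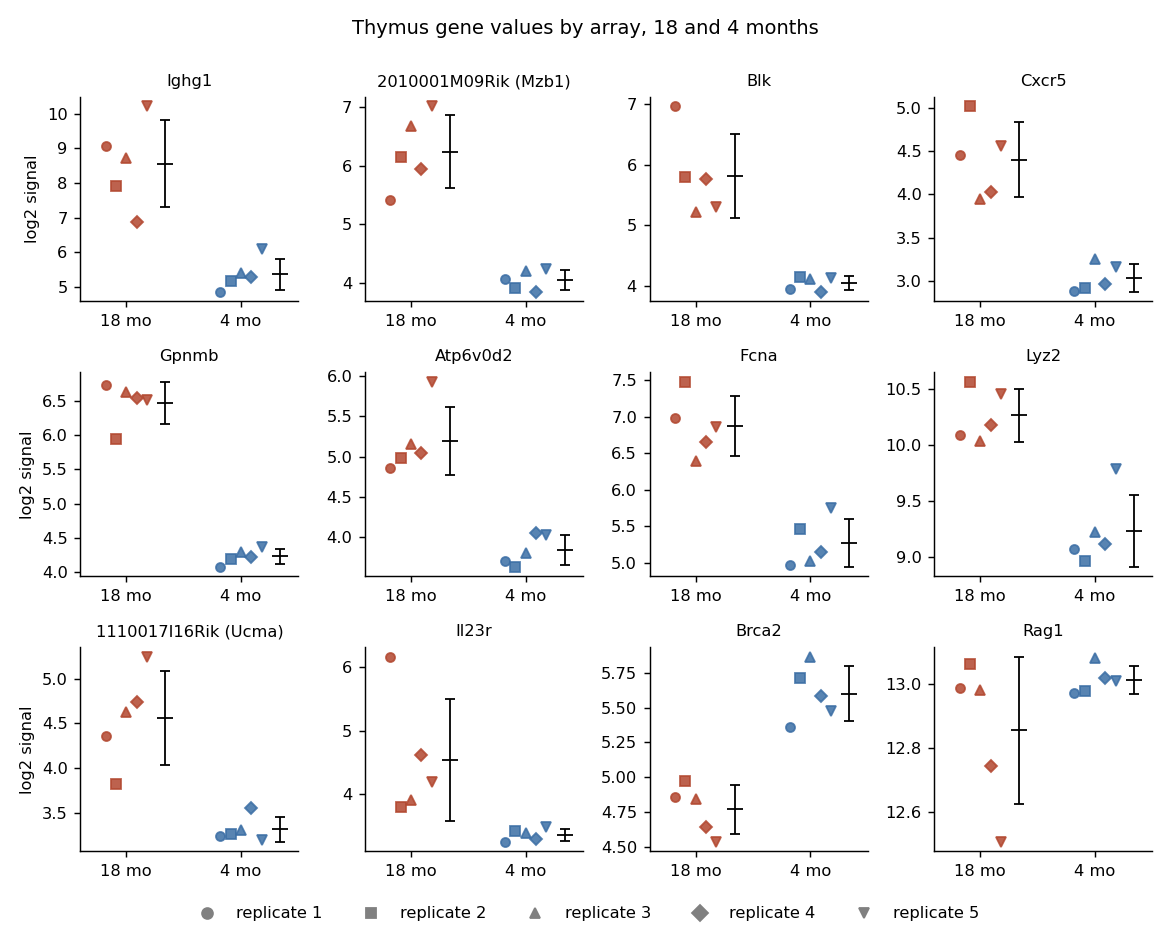
Log2 gene values of 12 genes in each thymus array, 18 months (red, left) and 4 months (blue, right), with the mean and SD beside each group and a symbol for each replicate. In 11 of the 12 panels the 2 ages do not overlap; the exception is the recombinase gene Rag1, whose axis spans less than 1 log2 unit.

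Of the macrophage list 4 genes were DE, and other DE genes known from macrophages, which were in no list or in another one, were grouped with them after their values were seen. Macrophages of the thymus clear the many thymocytes that die there, and their lysosomes digest them. Gpnmb, a glycoprotein of lysosomes in lipid-laden macrophages, had 6.73, 5.95, 6.63, 6.54 and 6.51 at 18 months, against 4.07, 4.19, 4.29, 4.23 and 4.37 at 4 months. The groups were far apart, with a 4.73-fold higher mean (2.24 ± 0.44, adjusted p = 0.00278). Atp6v0d2, a subunit of the proton pump that acidifies lysosomes in macrophages and osteoclasts, had 4.86, 4.99, 5.16, 5.04 and 5.93, against 3.70, 3.63, 3.80, 4.05 and 4.02 (1.35 ± 0.23, adjusted p = 0.000488). Fcna, a soluble lectin made by macrophages, had 6.98, 7.48, 6.39, 6.65 and 6.85, against 4.97, 5.46, 5.03, 5.15 and 5.75 (1.60 ± 0.30, adjusted p = 0.00194). These 3 genes passed in every fit that left out 1 thymus array and without both 18-month replicates 1 and 5.

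The complement receptor gene C3ar1 (1.61 ± 0.36), the folate receptor gene Folr2 of resident macrophages (1.27 ± 0.26), the lectin gene Mgl2 of macrophages and dendritic cells (1.46 ± 0.31) and the inhibitory IgG receptor gene Fcgr2b of macrophages and B cells (1.16 ± 0.25) were separated upward as well, with limma adjusted p of 0.00619 to 0.0149. Fcgr2b lost its call without 4-month replicate 1 (1.04, 0.0739). The chemokine gene Ccl6 had 7.99, 8.61, 8.38, 7.44 and 8.05, against 6.16, 5.87, 5.62, 5.88 and 7.17 (1.95 ± 0.43, adjusted p = 0.0104, and 0.0505 with 1.82 without 4-month replicate 3). The lysozyme gene Lyz2 (1.03 ± 0.25), Cd5l, a secreted protein of macrophages (1.59 ± 0.39), and the chemokine gene Ccl8 (1.86 ± 0.49) also rose, but did not pass in 6, 6 and 8 of the 10 fits that left out 1 array. Their changes there stayed positive, at 0.96 to 1.17, 1.39 to 1.73 and 1.61 to 2.13. Ccl8 overlapped between ages, with 4.96 in 18-month replicate 4 and 5.02 in 4-month replicate 5.

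Of 32 macrophage genes, 4 rose (Gpnmb, Folr2, Lyz2 and Cd5l) and 0 fell with all arrays, 16 were higher with the thymus arrays alone (5 to 17 when 1 array was left out), and 15 were separated upward. The median change was 0.59 (0.51 with centred arrays), and 30 changes were positive. The mean of the list was 7.06 to 7.35 at 18 months, against 6.38 to 6.89 at 4 months. Its members just short of separation include the complement gene C1qb (0.78), while C1qa (0.67 ± 0.32, adjusted p = 0.608 and 0.048 alone) was separated. Cd163, a scavenger receptor, and the iron exporter gene Slc40a1 had the only negative changes (-0.18 and -0.15). In muscle of the same ages the macrophage list had a median change of 0.70 and 16 members rose, in bone and adipose tissue the medians were 0.21 and 0.16, and in skin -0.08. None of these DE genes passed the test of the difference from the other tissues (adjusted p 0.0609 to 0.645). Outside the lists, and named after their values were seen, the lysosomal hydrolase gene Hexa (0.71 ± 0.14, adjusted p = 0.00297), the protease gene Ctsb (0.52 ± 0.13, 0.0467), the proton pump subunit gene Atp6v0a1 (0.48 ± 0.11, 0.0224) and the lectin gene Lgals3 (0.85 ± 0.22, 0.0467) rose and were separated. With probe sets of mean log2 of at least 5 alone, Hexa kept its call (0.71, 0.00981) and the other 3 did not (0.0618 to 0.0882). The difference from the other tissues passed for Hexa (0.77, adjusted p = 0.0108).

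Of 23 dendritic cell genes 1 rose (Mgl2), and 5 were higher with the thymus arrays alone, with a median change of 0.13. No gene of the 10 that present antigen on MHC class II passed in the limma fit of all arrays (2 at an unadjusted p below 0.05), all 10 changes were positive with a median of 0.36, and 2 were higher with the thymus arrays alone, among them the invariant chain gene Cd74 (0.36 ± 0.33, adjusted p alone 0.0313). Granulocyte and mast cell genes (24, median 0.07) and erythroid genes (14, median -0.01) had no member past the adjusted p in the limma fit of all arrays, with 1 and 0 members at an unadjusted p below 0.05.

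Genes of innate-like and effector lymphocytes changed in part. Il23r, the receptor for interleukin 23 on T cells that make interleukin 17, had 6.16, 3.80, 3.91, 4.61 and 4.19 at 18 months, against 3.24, 3.41, 3.39, 3.29 and 3.48 at 4 months. All 18-month arrays lay above, but replicate 1 stood 1.56 above the next array. The change was 1.17 ± 0.20 (adjusted p = 0.000326) and 0.76 without replicate 1 (0.000394), which is under 2-fold. With the thymus arrays alone its SE was 0.37 and it did not pass (adjusted p = 0.129). Cxcr6, a chemokine receptor of natural killer T cells and effector T cells, had 6.36, 5.73, 5.50, 6.02 and 5.57, against 4.06, 4.50, 4.55, 4.12 and 5.21 (1.35 ± 0.27, adjusted p = 0.00345). Gzmk, a granzyme of effector T cells, rose by 0.69 ± 0.16 (adjusted p = 0.0166) and lost its call without 4-month replicate 3 (0.67) and without 18-month replicates 3 (0.63) or 5 (0.51), and with the thymus arrays alone (adjusted p = 0.0783). The inhibitory receptor gene Pdcd1 had 6.63, 4.96, 4.79, 5.73 and 5.53, against 4.71, 5.06, 4.83, 4.88 and 5.06. Its groups overlapped, and the change of 0.62 ± 0.16 (adjusted p = 0.0427) was 0.34 without 18-month replicate 1 (0.317) and did not pass with the thymus arrays alone (0.322).

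Il17rb moved the other way. It encodes a receptor subunit for interleukin 25, carried by a subset of natural killer T cells, and had 4.93, 5.45, 5.41, 5.48 and 5.27 at 18 months, against 6.23, 6.12, 6.13, 6.13 and 5.88 at 4 months. The groups did not overlap, and the fall of 0.79 on the log2 scale (change -0.79 ± 0.11, adjusted p = 3.32e-06) passed in every fit that left out 1 thymus array. The difference from the other tissues was -0.79 (adjusted p = 5.82e-05). Of 31 genes of natural killer, innate-like and effector T cells, 4 rose (Blk, Cxcr6, Gzmk and Pdcd1) and 0 fell, with a median change of 0.13. The natural killer genes Ncr1 and Gzma changed by 0.00 and -0.06, and Klrd1 by -0.17. In 18-month replicate 1 the genes Il23r, Blk, Cxcr6, Pdcd1 and Klrb1b all had their highest value, 8.21 for the receptor gene Klrb1b (read by 1 probe set), beside 3.95 to 6.49 in the other 18-month arrays and 3.73 to 4.66 in the 4-month arrays. The mean of the whole list of 31 genes, which does not hold Il23r, was highest in 18-month replicate 5 (4.94, against 4.63 in replicate 1). Its member Gzmk was also highest there (4.48) and lowest of the 18-month arrays in replicate 1 (3.34). The B cell list was highest in replicate 2.

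**Figure D3:**
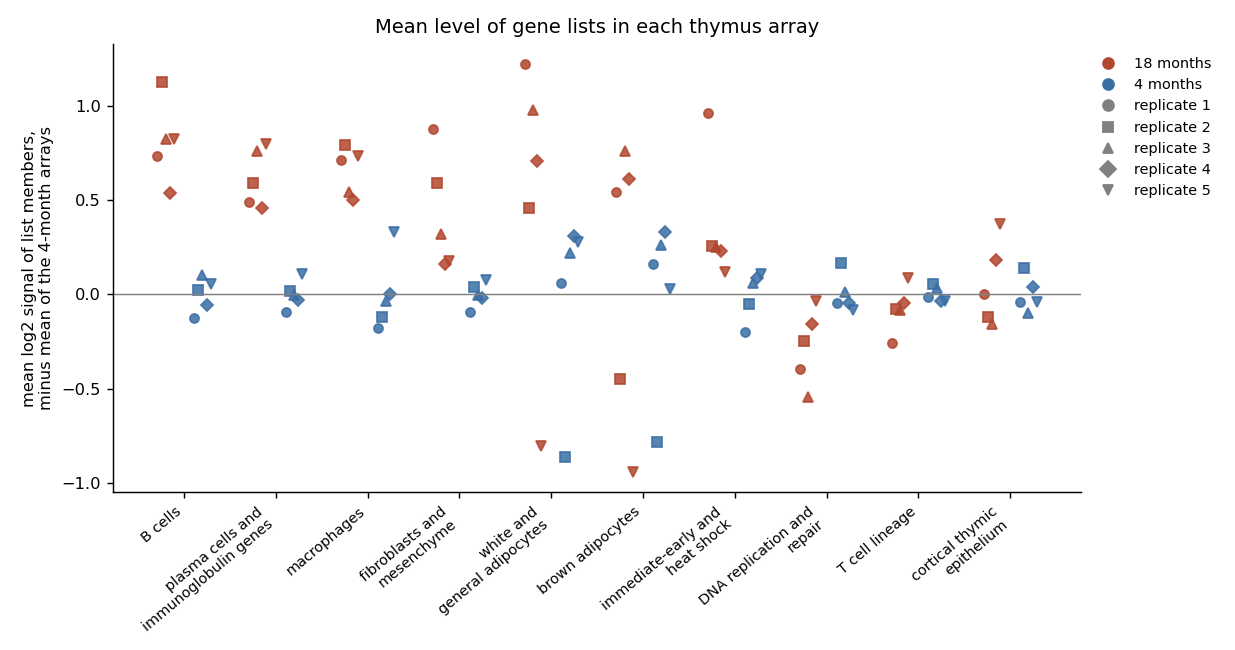
Mean log2 signal of 10 gene lists in each thymus array, 18 months (red, left of each pair) and 4 months (blue), minus the mean of the 4-month arrays, with a symbol for each replicate. The B cell, plasma cell, macrophage and fibroblast lists separate the ages, the immediate-early list does so by a small gap, and both adipocyte lists overlap, with 18-month replicate 5 and 4-month replicate 2 at the low end.

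No member of the adipocyte lists rose and 2 of the fibroblast list did. Other DE genes known from fibroblasts, fat or liver, in no list (Rarres2, S100a6, Ghr, Igfbp6, Il1r1 and Hp), are given beside them, grouped after their values were seen. Rarres2, which encodes the adipokine chemerin, had 8.62, 8.41, 8.05, 8.14 and 7.60 at 18 months, against 6.29, 6.46, 6.38, 6.66 and 7.14 at 4 months (1.58 ± 0.33, adjusted p = 0.00546). S100a6, a calcium-binding protein of fibroblasts and epithelia, had 7.43, 7.39, 6.93, 7.43 and 7.97, against 5.61, 5.68, 5.82, 5.76 and 6.12 (1.63 ± 0.29, adjusted p = 0.000583), and passed in every fit that left out 1 array. Both genes were separated. Aldh1a1, an enzyme of retinoic acid synthesis, rose by 1.30 ± 0.29 (adjusted p = 0.0108), with 18-month replicate 1 highest at 9.09. It overlapped between ages and lost its call without that array (1.05, 0.0848) or without 4-month replicate 1 (1.15), and with the thymus arrays alone (0.0551). The growth hormone receptor gene Ghr had 8.66, 8.42, 8.27, 7.83 and 6.78, against 6.73, 6.29, 6.80, 7.28 and 7.35. Replicate 5 of the 18-month group fell among the 4-month arrays, and the call (1.10 ± 0.24, adjusted p = 0.0104) was lost without 4-month replicate 2 (0.95) or 18-month replicates 1 (0.93) or 2 (0.99), and with the thymus arrays alone (0.109).

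The complement inhibitor gene Serping1 rose by 0.92 ± 0.20 (adjusted p = 0.00807, and 0.058 with 0.76 without 18-month replicate 1). Igfbp6, a binding protein of insulin-like growth factors, and the interleukin 1 receptor gene Il1r1 rose by 1.24 ± 0.31 and 1.01 ± 0.26 (adjusted p = 0.0353 and 0.0486) but failed in 7 and 8 of the 10 fits that left out 1 array, with changes of 1.06 to 1.40 and 0.83 to 1.16, and with probe sets of mean log2 of at least 5 (0.0941 and 0.059). The haptoglobin gene Hp had 9.90, 10.47, 9.55, 9.37 and 8.32, against 7.74, 6.58, 7.48, 8.10 and 8.21 (1.90 ± 0.45, adjusted p = 0.0205), and failed in 5 of the 10 (1.64 to 2.20). Of 29 fibroblast and mesenchyme genes, 2 rose (Aldh1a1 and Serping1), 4 were higher with the thymus arrays alone and 6 were separated upward, with a median change of 0.28. The list mean was 6.38 to 7.10 at 18 months, against 6.13 to 6.30 at 4 months. The collagen and matrix list did not show this: of its 30 genes none passed in the limma fit of all arrays (3 at an unadjusted p below 0.05), and the median was 0.10, with Col1a1 at -0.32 and Postn at -0.71. In muscle the fibroblast list had a median of 0.60 and 7 members rose.

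The adipocyte lists overlapped between the ages. The white and general adipocyte list (28 genes, median change 0.43) ranged from 6.83 to 8.85 at 18 months and from 6.77 to 7.94 at 4 months. No member passed in the limma fit of all arrays, 7 had an unadjusted p below 0.05 and 1, the leptin gene Lep, was higher with the thymus arrays alone. Lep had 6.52, 6.55, 7.11, 6.44 and 3.65, against 4.19, 3.90, 3.57, 3.55 and 3.19 (2.37 ± 0.80, adjusted p = 0.229), so that 4 of the 18-month arrays lay well above all 4-month arrays and replicate 5 did not. The adipocyte hormone gene Adipoq had 9.88, 9.52, 9.39, 9.24 and 7.70, against 7.54, 6.82, 7.89, 8.48 and 8.61 (1.28 ± 0.55, adjusted p = 0.499). Ucp1, the uncoupling protein of brown fat, had 9.27, 7.22, 9.68, 10 and 3.12, against 8.87, 6.02, 9.30, 9.51 and 8.64. It was thus below the lower quartile of probe set values in 18-month replicate 5 and high in the other arrays of both ages, and its change of -0.61 ± 0.74 turned to 0.57 without that array. Of 23 brown adipocyte genes none passed (1 at an unadjusted p below 0.05), and the list overlapped, at 4.24 to 5.94 and 4.40 to 5.51. Brown and white fat genes thus varied between mice at both ages, and the part of fat tissue in the values of Rarres2, Hp, Ghr and the other genes above was not tested.

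The DE gene with the smallest adjusted p was 1110017I16Rik, now named Ucma, a secreted protein known from cartilage. It had 4.36, 3.82, 4.63, 4.74 and 5.25 at 18 months, against 3.25, 3.27, 3.31, 3.56 and 3.19 at 4 months (1.24 ± 0.13, adjusted p = 3.65e-09). With the thymus arrays alone the SE was 0.21 and the limma adjusted p 0.0164. The 4-month values lay close to the lower quartile of probe set values, all 18-month arrays lay above them, and the call held in every fit that left out 1 array (1.07 to 1.43) and without replicates 1 and 5 of the 18-month group (1.08). The changes in the other tissues were 0.11 in skin, 0.16 in muscle, -0.02 in bone and 0.00 in adipose tissue, and the difference of 1.18 passed (adjusted p = 8.22e-07). The estrogen sulfotransferase gene Sult1e1 had 6.22, 5.81, 4.95, 4.74 and 5.17, against 3.06, 3.20, 3.11, 3.83 and 3.73 (1.99 ± 0.52, adjusted p = 0.0486). It was separated, but stood at the threshold and failed in all 10 fits that left out 1 array (up to 0.168). Gabra3, a subunit of GABA receptors, rose by 1.24 ± 0.32 (adjusted p = 0.0467) and failed in 7 of them, with 0.96 and an adjusted p of 0.252 without 18-month replicate 1, and with the thymus arrays alone (0.0571). Tbrg3, the DE gene that fell, had 5.64, 5.90, 6.16, 5.38 and 4.10, against 7.44, 5.79, 6.36, 7.18 and 6.33. Its groups overlapped, and the change of -1.19 ± 0.28 (adjusted p = 0.0205) was -0.85 without 18-month replicate 5, failed in 4 of the 10, and did not pass with the thymus arrays alone (0.159) or with probe sets of mean log2 of at least 5 (-1.06, 0.225).

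**Figure D4:**
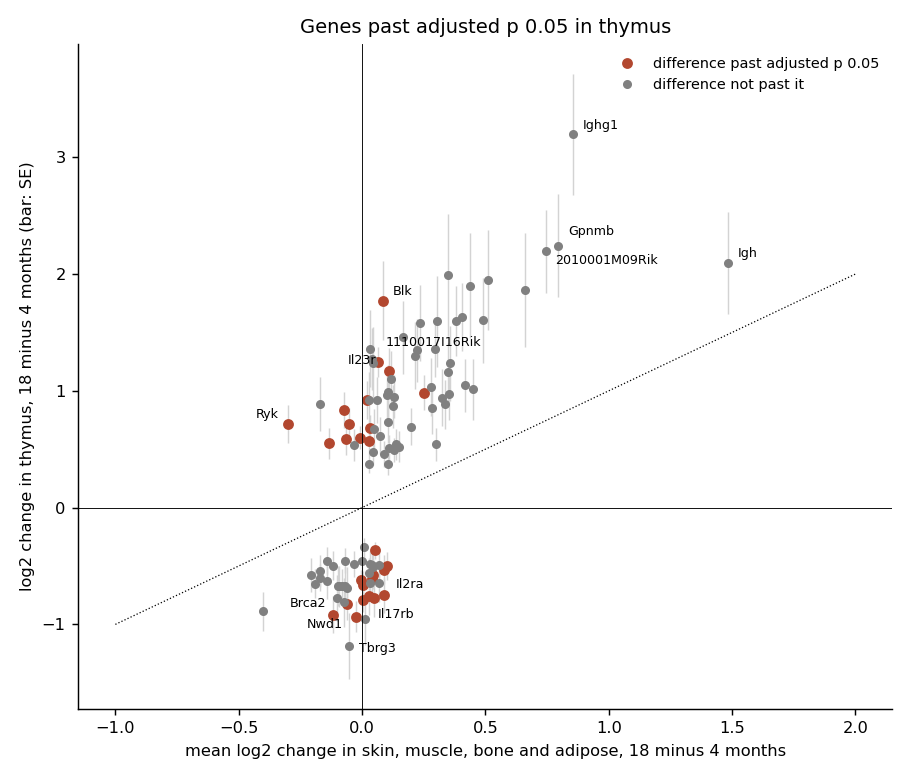
Log2 change in thymus (vertical, bar: SE) against the mean log2 change in skin, muscle, bone and adipose tissue (horizontal), 18 minus 4 months, for the 106 genes past the adjusted p in thymus; the dotted line marks equal change. Red genes (27) passed the test of the difference, among them Blk, Il23r and 1110017I16Rik above and Il2ra, Il17rb, Brca2 and Nwd1 below; Ighg1, Gpnmb and Igh rose in other tissues as well.

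Genes that define thymocytes stayed near their 4-month level. Of 21 genes of the T cell lineage 0 passed in the limma fit of all arrays (2 at an unadjusted p below 0.05, both lower), 0 passed with the thymus arrays alone, and the median change was -0.03. Cd4 changed by -0.03 ± 0.37 and Cd8a by 0.03 ± 0.50, where the SE again holds the spread of these genes in other tissues; their thymus arrays alone spanned 10.51 to 10.79, against 10.47 to 10.83, for Cd4. The receptor chain gene Cd3e had 10.20, 10.36, 10.40, 10.37 and 10.38, against 10.47, 10.60, 10.51, 10.47 and 10.53. All 18-month arrays lay below, by a change of -0.17 ± 0.36 that did not pass (adjusted p = 1, and 0.166 alone). Among 16 double positive genes 0 passed with all arrays (2 at an unadjusted p below 0.05, both lower) and 1, the transcription factor gene Ikzf1, was lower with the thymus arrays alone (-0.27, adjusted p alone 0.0344). The median was -0.14, and the mean of the list was 9.96 to 10.11 at 18 months, against 10.14 to 10.19 at 4 months, without overlap. Rag1 (-0.16 ± 0.29), Rag2 (0.07 ± 0.09) and Dntt (-0.00 ± 0.20), the enzymes that cut and extend receptor gene ends, did not pass. None of the 23 genes of selection and single positive cells passed in the limma fit of all arrays (1 at an unadjusted p below 0.05), and their median was 0.00. Foxp3, the factor of regulatory T cells, changed by 0.03 ± 0.12.

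Early thymocyte genes held the clearest falls of this lineage. Il2ra, the interleukin 2 receptor chain that marks double negative cells on their way to receptor selection and also regulatory T cells, had 6.82, 7.21, 6.51, 6.55 and 7.10 at 18 months, against 7.49, 7.79, 7.51, 7.88 and 7.29 at 4 months (-0.75 ± 0.15, adjusted p = 0.00313). Notch3, which dividing double negative cells carry and vascular smooth muscle too, had 6.31, 6.00, 5.89, 5.67 and 5.29, against 6.90, 6.80, 6.76, 6.80 and 6.33 (-0.89 ± 0.17, adjusted p = 0.00194). Both were separated and passed in every fit that left out 1 array. With probe sets of mean log2 of at least 5 over all tissues, Notch3 passed (-0.99) and Il2ra did not (-0.51, adjusted p = 0.769). The group means of Il2ra in the other tissues were 3.41 to 3.83, so that filter can drop its probe sets that are bright in thymus. The difference from the other tissues passed for Il2ra (-0.84, adjusted p = 0.00811) and did not for Notch3 (-0.48, 0.504), which also fell in muscle (-0.76). These were the 2 of 18 early thymocyte genes that fell. No early thymocyte gene rose with all arrays (0 at an unadjusted p below 0.05), and the list's median change was -0.11. Notch1, the receptor that commits progenitors to the T lineage, had 8.86, 8.44, 8.47, 7.87 and 7.21, against 9.07, 9.10, 9.05, 8.92 and 8.58, a change of -0.77 ± 0.25 that did not pass (adjusted p = 0.197). Ptcra, the surrogate receptor chain of this stage, changed by -0.35 ± 0.11 (adjusted p = 0.159). The ligand gene Dll4 changed by -0.06 ± 0.18 and the target gene Hes1 by 0.07, and of 19 Notch pathway genes 1 fell (Notch3) and 0 rose.

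Epithelial genes did not pass as a group. Of 18 cortical epithelial genes none passed in the limma fit of all arrays (2 at an unadjusted p below 0.05, both higher) or with the thymus arrays alone, with a median of 0.03. Foxn1 had 5.75, 5.20, 5.31, 6.04 and 5.77, against 5.56, 5.90, 5.48, 5.38 and 5.19, and overlapped completely (0.11 ± 0.38). The thymoproteasome subunit gene Psmb11 had 8.25, 7.59, 7.45, 8.29 and 8.98, against 8.61, 8.84, 8.07, 8.39 and 7.82 (-0.23 ± 0.16, adjusted p = 0.922). Ccl25, the chemokine that draws progenitors in, changed by -0.06 ± 0.11, Prss16 by -0.12 ± 0.12 and the cytokine gene Il7 by 0.10 ± 0.23. None of 14 medullary epithelial genes passed in the limma fit of all arrays (0 at an unadjusted p below 0.05), with a median of 0.10, an Aire change of -0.21 ± 0.11 (adjusted p = 0.678) and a Krt14 change of -0.34. Corneocyte-like and tuft cell genes (16) had a median of -0.02 and 0 past the adjusted p by limma (1 at an unadjusted p below 0.05). Among 33 antigens of other organs that medullary cells display, 1 fell, Reg3g, an antimicrobial lectin, at 4.41, 4.39, 6.15, 5.23 and 6.73, against 5.91, 5.63, 6.37, 6.19 and 6.86. Its groups overlapped, and the change of -0.81 ± 0.21 (adjusted p = 0.0467) failed in 7 of the 10 fits that left out 1 array (-1.15 to -0.56) and with the thymus arrays alone (0.406).

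Genes of DNA replication and repair tended downward. Of 31 measured, 29 had a negative change, 2 fell and 0 rose with all arrays, 5 were lower with the thymus arrays alone and 8 were separated downward, with a median of -0.26 (-0.33 with centred arrays). Double negative thymocytes and early double positive cells are the dividing cells of the organ. Brca2, which acts in the repair of broken DNA by recombination, had 4.86, 4.97, 4.84, 4.64 and 4.54 at 18 months, against 5.36, 5.71, 5.87, 5.58 and 5.47 at 4 months. The groups did not overlap, and the change of -0.83 ± 0.13 (adjusted p = 0.000164) held in every fit that left out 1 array, with a difference from the other tissues of -0.77 (adjusted p = 0.00734). The catalytic subunit gene of DNA polymerase epsilon, Pole, had 6.63, 6.49, 6.18, 6.33 and 6.19, against 6.98, 7.28, 7.22, 7.04 and 6.66 (-0.67 ± 0.17, adjusted p = 0.0467). It was separated but failed in 8 of the 10 fits that left out 1 array (-0.77 to -0.61) and with probe sets of mean log2 of at least 5 (-0.63, 0.331). The other members lower with the thymus arrays alone were the origin licensing factor gene Cdt1 (-0.48 ± 0.17), the primase polymerase subunit gene Pola1 (-0.47 ± 0.22) and the helicase gene Blm (-0.49 ± 0.19), with adjusted p of 0.299, 0.592 and 0.40 in the limma fit of all arrays and 0.0434, 0.0423 and 0.0371 alone. The helicase subunit genes Mcm2 to Mcm7 changed by -0.14 to -0.25.

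Of 33 cell cycle and mitosis genes 0 passed in the limma fit of all arrays (2 at an unadjusted p below 0.05, both lower) and 5 were separated downward, with a median of -0.20. The mean of the list was 7.95 to 8.17, against 8.16 to 8.41. Mki67, the antigen of cycling cells, had 9.99, 9.93, 9.95, 9.46 and 8.93, against 10.02, 10.06, 10.32, 10.09 and 10.54, separated by a small gap (-0.55 ± 0.41, adjusted p = 0.952). E2f7, a repressor of the E2F family, was the 1 gene lower with the thymus arrays alone (-0.42, adjusted p alone 0.0244). Named after their values were seen, the replication fork genes Timeless (-0.65 ± 0.15, adjusted p = 0.0152) and Chtf18 (-0.62 ± 0.12, 0.00216) and the BRCA1 partner gene Bard1 (-0.67 ± 0.17, 0.0383) fell and were separated. With probe sets of mean log2 of at least 5 none of these 3 passed (limma: Timeless -0.55, adjusted p = 0.251; Chtf18 -0.32, 0.799; Bard1 -0.56, 0.62). Of 13 end joining genes, which seal receptor gene breaks, none passed (2 at an unadjusted p below 0.05 in the limma fit, both lower), and their list mean was 7.59 to 7.75, against 7.79 to 7.87. The median changes of the replication list in the other tissues were -0.31 in skin, -0.02 in muscle, 0.05 in bone and -0.13 in adipose tissue.

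E2F factors drive replication genes through sites close to the transcription start. The letters TTTGGCGC or TTTCGCGC, on either strand, were in 225 of 27025 mouse promoter sequences of RefSeq (0.833%, GRCm38.p6, 250 bases before to 50 after the start) and in 7 of the 26 promoters found for the replication list (26.9%: Mcm3, Mcm5, Mcm6, Mcm7, Cdt1, Pola1 and Rfc3). Brca2 was among the 26 and held no such match. The windows of the 2 genes with a match that were lower with the thymus arrays alone are shown on the gene's strand, with the match in capitals, Cdt1 at chr8:122568005-122568064 (plus strand) and Pola1 at chrX:93632260-93632319 (minus strand). A match describes these letters and shows no binding.
Cdt1: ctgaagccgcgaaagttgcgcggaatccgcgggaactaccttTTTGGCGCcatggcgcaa
Pola1: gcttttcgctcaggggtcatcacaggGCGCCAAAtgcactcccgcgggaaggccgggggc

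Interferon response genes were higher in the 18-month thymus in part. None of the 32 passed in the limma fit of all arrays (7 at an unadjusted p below 0.05, 6 of them higher), 6 were higher with the thymus arrays alone (0 to 9 when 1 array was left out), and the median change was 0.20. Cxcl10, a chemokine that interferon induces, had 7.34, 8.39, 8.69, 8.11 and 8.46, against 6.20, 6.66, 6.72, 7.0 and 7.37, so that 1 array of each age overlapped by a small margin (1.41 ± 0.49, adjusted p = 0.256, and 0.0211 alone). The GTPase genes Gbp2 (0.72 ± 0.41, adjusted p alone 0.0344) and Igtp (0.41 ± 0.35, 0.0195) were separated upward, while Ifit3, read by 1 probe set, changed by -0.88 ± 0.41. The core of the interferon-stimulated response element (GAAA, any 2 bases, GAAA) was on either strand of 943 of the 27025 promoters (3.49%) and of 15 of the 26 found for this list (57.7%). Ifit3, whose change was negative, was among these 15 as well. The windows shown are those of Gbp2 at chr3:142620579-142620638 (plus), Igtp at chr11:58199497-58199556 (plus) and Cxcl10 at chr5:92349068-92349127 (minus), with the match in capitals.
Gbp2: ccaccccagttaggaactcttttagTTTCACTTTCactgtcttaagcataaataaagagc
Igtp: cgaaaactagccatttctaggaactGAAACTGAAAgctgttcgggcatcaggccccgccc
Cxcl10: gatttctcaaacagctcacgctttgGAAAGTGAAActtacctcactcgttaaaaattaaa

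Of 32 inflammation and NF-kB genes 1 rose (Ccl8), with a median of 0.18, and Nfkb1 changed by 0.06 ± 0.14. Of 20 senescence genes 0 passed in the limma fit of all arrays (3 at an unadjusted p below 0.05, all higher) and 2 were higher with the thymus arrays alone. The cyclin-dependent kinase inhibitor gene Cdkn1a was one of them, at 6.06, 5.84, 5.98, 6.17 and 6.24, against 4.98, 5.13, 4.99, 4.94 and 5.08. The groups did not overlap, with a change of 1.03 ± 0.39 (adjusted p = 0.33, and 0.000389 alone). Cdkn1a rose in muscle (1.84) and adipose tissue (2.13) and fell in bone (-1.42) between the same ages. In contrast, the locus of the inhibitor p16, Cdkn2a, had 4.44, 4.19, 4.38, 4.87 and 5.00, against 4.52, 4.21, 4.25, 4.25 and 4.2 (0.29 ± 0.13, adjusted p = 0.516). The lamin gene Lmna changed by 0.07 ± 0.19. Among 22 apoptosis regulators none passed in the limma fit of all arrays (3 at an unadjusted p below 0.05), with a median of 0.08, and 14 glucocorticoid response genes had a median of 0.41 with 0 passing in the same fit (2 at an unadjusted p below 0.05) and 2 higher with the thymus arrays alone.

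Alternative splicing was tested as a change of a gene's probe sets relative to each other. Genes whose mean differed between ages (unadjusted p under 0.05, 2265 genes) were set aside first, and 120 of 10311 genes (1.16%) were alternatively spliced (AS) between 18 and 4 months at an adjusted p below 0.05. On simulated data this test called more unchanged genes than its nominal rate, so its adjusted p-values tend to be too small. It also counts each probe set of a mouse as a separate measurement, so its p-values do not measure the spread between mice alone. The simulated probe sets varied independently, so the effect of probe sets that move together was not tested. The count depended on single arrays: it was 299 without 18-month replicate 1, 44 without 18-month replicate 4 and 46 without 18-month replicate 5. With limma's diffSplice test 12 genes passed, all of them among the 120. Syne1, which encodes a large linker of the nuclear envelope to the cytoskeleton, had the smallest adjusted p (5.52e-18, and 0.00206 by diffSplice). Of its 50 probe sets, 17 of the 25 with the brighter 4-month signal were lower at 18 months and 24 of the 25 with the dimmer signal were higher. Relative to the gene mean, probe set 4598857 had 0.69, 0.86, 0.57, -0.37 and -0.84 at 18 months, against 1.60, 1.72, 1.57, 2.00 and 1.05 at 4 months (difference -1.41). All 18-month arrays lay below, replicates 4 and 5 lowest. The gene mean itself varied at 18 months, from 4.74 in replicate 5 to 6.54 in replicate 1, against 5.03 to 5.42 at 4 months.

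Ctnnd1, the p120 catenin of cell junctions, is spliced differently in epithelium and mesenchyme (adjusted p = 0.000111, and 0.0463 by diffSplice). Its probe set 4933447 had 2.96, 3.36, 3.20, 2.94 and 3.04, against 4.00, 3.99, 3.84, 3.88 and 4.68, separated downward (-0.98) while the gene mean was 6.33 and 6.06. Its 18-month values lay close to or below the lower quartile of probe set values (3.22 to 3.31), so this is a change of dim signal. Of the other 22 probe sets 2 were lower, and 6 were higher by at least 0.5. The RNA helicase gene Ddx17 (adjusted p = 8.72e-07) and the spectrin gene Spnb2 (0.000109) did not pass diffSplice (0.237 and 1), and Spnb2 did not pass the test of all probe sets without 18-month replicate 4 (0.0655). In Ddx17, probe set 4312502 lay at 5.25 to 8.17, against 8.03 to 9.13, with 18-month replicates 4 and 5 the 2 lowest. Snrnp70, a protein of the U1 spliceosome particle (2.03e-05, and 0.00206 by diffSplice), changed in probe set 5152165 by -1.21 relative to the gene, at -2.20, -3.50, -3.09, -4.16 and -3.97, against -1.75, -2.02, -2.46, -2.45 and -2.20. The dim receptor gene Lrp1b (5.87e-06) changed in probe set 4663353, at 5.32, 4.40, 4.69, 4.37 and 4.77, against 5.18, 6.56, 7.51, 7.0 and 6.37 (-1.81), while its gene mean was 3.38 and 3.36. Among 62 spliceosome and splicing factor genes none passed for the gene level in the limma fit of all arrays (6 at an unadjusted p below 0.05, 5 of them lower), with a median of -0.11 (-0.19 with arrays centred). Of the 62 changes 50 were negative, and 5 members were separated downward and 1 upward. The splicing helicase gene Dhx15 (-0.11 ± 0.14) and the spliceosome gene Wbp11 (-0.14 ± 0.19) did not pass.

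**Figure D5:**
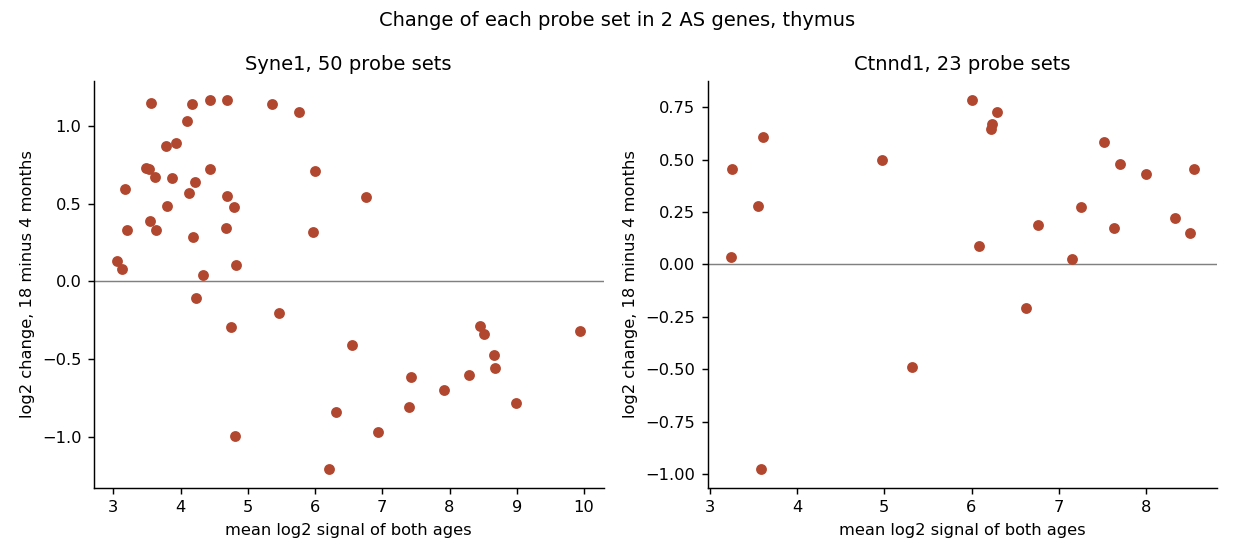
Log2 change of each probe set, 18 minus 4 months, against its mean log2 signal over both ages, for Syne1 (50 probe sets) and Ctnnd1 (23 probe sets). In Syne1 most bright probe sets lie below 0 and most dim ones above it; in Ctnnd1 the lowest point is probe set 4933447 at -0.98.

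The 5 genes with the smallest adjusted p for the difference from the other tissues were 1110017I16Rik, Il17rb and, beside them, Spo11, Nwd1 and Ryk. Spo11, the enzyme that cuts DNA in meiosis and is known from germ cells, had 6.85, 6.73, 6.89, 6.38 and 6.53 at 18 months, against 7.43, 6.82, 7.32, 7.57 and 7.33 at 4 months (-0.62 ± 0.08, adjusted p = 3.32e-06). The groups overlapped at 1 array, 4-month replicate 2, and the difference was -0.62 (adjusted p = 5.82e-05). With the thymus arrays alone its SE was 0.14 and the adjusted p 0.048. Nwd1, a NACHT and WD repeat protein, had 6.29, 5.77, 5.92, 5.75 and 5.48, against 6.92, 6.76, 6.74, 6.86 and 6.59 (-0.93 ± 0.13, adjusted p = 1.07e-05), separated, with a difference of -0.91 (0.000322). With probe sets of mean log2 of at least 5 over all tissues the change of Nwd1 was -0.10 (0.999), so the call was lost. The group means of Nwd1 in the other tissues were 3.16 to 3.63, so that filter can drop its probe sets that are bright in thymus. It does not show that the fall lay in dim signal of the thymus. Ryk, a receptor for Wnt ligands, rose in thymus by 0.72 ± 0.16 (adjusted p = 0.0121) and changed by -0.81 in bone, with a difference of 1.02 (0.0016). Its thymus call was lost without 4-month replicates 1 (0.67) or 2 (0.68) or 18-month replicate 1 (0.64). Il23r passed this test as well (1.06, adjusted p = 0.0131). With probe sets of a mean log2 signal of at least 5 over all tissues, 1 gene passed the test of the difference. That filter left no probe set of 1110017I16Rik, Il17rb, Spo11 or Il23r, which were thus not tested. The count therefore does not show whether their differences hold.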

How the data were processed

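RNA of whole thymus was hybridised to Affymetrix Mouse Exon 1.0 ST arrays, 1 mouse per array. The authors deposited log2 values of core probe sets, made in Partek on the mm9 annotation. The steps were RMA with a background correction that takes GC content into account, then quantile normalization and median polish. Quantile normalization gives every array the same distribution, so a change shared by all genes cannot be seen. Such values carry no counts, and the number of arrays limits the precision. Of 194293 probe sets, 179614 (92.4%) had 1 gene symbol and were averaged per gene; 1331 with several symbols and 13348 with none were left out.

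Genes were tested with limma 3.58.1 in R 4.3.3 over all 65 arrays with 13 group means and Benjamini-Hochberg adjustment over 15830 genes. The groups were all tissues at 4 and 18 months, and skin, muscle and bone at 28 months. The difference from other tissues was the thymus change minus the mean change of skin, muscle, bone and adipose tissue in the same fit. AS genes were tested with an F-test of age by probe set on the 10 thymus arrays (probe sets of mean log2 of at least 3, genes with at least 3 of them). Both tests were checked on simulated data, where the AS test called more unchanged genes than its nominal rate. Same-numbered 18-month and 4-month samples did not deviate together (correlations 0.00628 to 0.0662), so the numbers do not pair mice.

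Named were all DE genes, for each list the 4 members with the smallest adjusted p past the threshold, a set of thymus genes given whatever their change, the 6 AS genes ranked first by adjusted p and the 5 genes with the smallest adjusted p for the difference. The members and the lists were chosen with earlier results of these data known. Alternatives were the thymus arrays alone, a replicate block, the median over probe sets, a random block for the mouse, filters on dim probe sets and on probe set number, normalization within thymus, median centring, diffSplice and leaving out each array. Leaving out 18-month replicates 1 and 5 together, and leaving out arrays in the fit of thymus alone, were chosen after seeing the data. Gene symbols are those of the platform annotation, of which 13745 of 15830 (86.8%) are current RefSeq symbols (GRCm38.p6).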

Additional observations from a re-analysis of the deposited data

Results flagged for a closer look

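In 10 of the 140 groups of 5 arrays formed by the 70 named genes and 2 ages (7.14%, where chance gives about 1 in 20), 1 array lay far from the other 4. At 18 months these were Atp6v0d2 in replicate 5 (5.93, high), Gpnmb in replicate 2 (5.95, low), Il7 in replicate 5 (6.87, high) and Cd3e in replicate 1 (10.20, low). At 4 months they were C3ar1 (5.58, high), Cd5l (4.21, high) and Notch3 (6.33, low), all in replicate 5, Igfbp6 (6.36, high) and Ucp1 (6.02, low) in replicate 2, and Cdkn2a in replicate 1 (4.52, high).

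For 9 named genes the thymus change differed from the mean change of the 4 other tissues in the limma test of that difference. It was larger in thymus for Blk (1.68), 1110017I16Rik (1.18), Il23r (1.06) and Ryk (1.02), and smaller for Nwd1 (-0.91), Il2ra (-0.84), Il17rb (-0.79), Brca2 (-0.77) and Spo11 (-0.62).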

How the results depend on the processing

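The count of 30 DE genes was 55 with the thymus arrays alone, 49 in that fit with a replicate block, 54 after quantile normalization within thymus, 19 without 18-month replicates 1 and 5, and 17 (without 4-month replicate 1) to 50 (without 18-month replicate 5) when 1 array was left out. The 106 genes past the adjusted p were 443 with the thymus arrays alone, 262 with the replicate block, 427 after normalization within thymus, 41 with probe sets of mean log2 of at least 5, 49 without 18-month replicates 1 and 5, and 52 to 118 when 1 array was left out (52, 55 and 59 without 4-month replicates 1, 2 and 3). The 27 differences from the other tissues were 1 with probe sets of mean log2 of at least 5 over all tissues. They were 12 without 18-month replicates 1 and 5. When 1 array was left out they were 14 to 36 (14 and 17 without 4-month replicates 2 and 1). With the thymus arrays alone, leaving out 1 array gave 29 to 92 DE genes and 116 to 681 genes past the adjusted p. The 120 AS genes were 357 with no gene set aside for its mean level, 12 by diffSplice, 97 with a replicate block and 44 to 299 when 1 array was left out (54, 61 and 72 without 4-month replicates 3, 1 and 4). The filter at a mean log2 of at least 5 left 11818 genes to test. It also changed the values of genes still tested, such as Nwd1 (-0.10, against -0.93). Because it takes the mean over all tissues, it can drop probe sets that are bright in thymus and dim elsewhere. The group means of Nwd1 were 5.84 and 6.77 in thymus and 3.16 to 3.63 in the other tissues. The lower counts with this filter therefore do not show that the changes lay in dim signal of the thymus. How much of the shifts in the counts came from this was not tested.

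A random block for the mouse, the median over probe sets, a minimum of 3 probe sets and median centring left the counts of DE genes, of genes past the adjusted p and of differences within 1.5 times. Of 42 named genes past the adjusted p, 42 kept their call with the mouse block, 34 with the thymus arrays alone, 27 with the replicate block, 21 without 18-month replicates 1 and 5 and 25 to 37 when 1 array was left out. None of the 42 changed sign.

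Changes of sign occurred in genes that did not pass. With arrays centred, Rag2 was at -0.01, Cd8a at -0.05, Foxp3 at -0.04, Lmna at -0.003 and Nfkb1 at -0.02. Foxn1 was at -0.004 with the median over probe sets, and Il7 at -0.003 with probe sets of mean log2 of at least 5. Without 18-month replicates 1 and 5, Il7 was at -0.04, Cd4 at 0.04 and Ucp1 at 0.50. When 1 array was left out, the ranges were -0.14 to 0.01 for Ccl25, -0.17 to 0.05 for Dll4, -0.03 to 0.16 for Il7, -0.01 to 0.15 for Rag2, -0.07 to 0.06 for Dntt, -0.08 to 0.01 for Cd4, -0.002 to 0.07 for Cd8a, -0.01 to 0.07 for Foxp3, -0.004 to 0.10 for Nfkb1 and -1.22 to 0.57 for Ucp1.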

Other observations

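Some gene groups outside the main account moved with single mice. The immediate-early and heat shock genes (18 measured) had a mean of 6.88 in 18-month replicate 1 and 6.04 to 6.18 in the other 18-month arrays, against 5.72 to 6.03 at 4 months. Their median change of 0.23 was 0.10 without 18-month replicates 1 and 5, and 0 members passed in the limma fit of all arrays (2 at an unadjusted p below 0.05). Pth, the parathyroid hormone gene, had 4.91, 2.95, 6.21, 7.37 and 6.87 at 18 months, against 3.79, 3.66, 5.72, 3.25 and 5.20 at 4 months, a change of 1.34 with a limma adjusted p of 0.0707. Its level was above 6 in 3 of the 5 mice at 18 months and in none at 4 months, and the ages overlapped.

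Respiratory chain genes (25 measured) had a positive change in 23, with a median of 0.18, but 0 passed in the limma fit of all arrays (1 at an unadjusted p below 0.05). Their mean was 9.13 and 9.17 in 18-month replicates 4 and 5, and 8.55 to 8.84 in the other 18-month arrays, against 8.57 to 8.75 at 4 months. Circadian clock genes (15) had a median change of 0.05 in thymus, -0.74 in skin and -0.62 in muscle, and the difference between the tissues was not tested for the list.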
